A study of Xenopus tropicalis with 26 samples.

Results

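The genes described here are *gadd45a*, *gadd45b*, *gadd45g* and *dusp1*, all 4 genes whose symbol in the deposited table is one of these names. They are 4 of 34192 genes listed, and all 4 were among the 15019 genes that passed the abundance filter and were tested. Each symbol had 1 row. No change in expression entered the choice of names, though results from these data were known when the names were chosen.

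Gadd45 proteins are small acidic stress-response proteins without enzymatic activity of their own. They bind and activate the kinase Map3k4 at the head of the p38 and JNK cascade, bind PCNA, p21 and the Cdk1 and cyclin B complex, and take part in active DNA demethylation through excision repair. In *Xenopus*, *gadd45a* and *gadd45g* act redundantly in the exit from pluripotency and in neural development. Dusp1, also called MKP-1, works at the other end of the same cascade: it is a nuclear phosphatase, usually made as an immediate early gene product, that inactivates p38, JNK and ERK.

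RNA was measured in whole *Xenopus tropicalis* embryos in 26 samples of 10 embryos each, all at 25 °C. The 13 control samples (UIC) were kept in 1/9x MR, a dilute saline, and the 13 high K+ samples (hiK) in 10 mM KCl. The study describes high K+ as depolarizing the embryo. Its general methods give a higher KCl concentration than its RNA-seq methods, from which the 10 mM is taken. Samples were taken every 30 min from stage 8, the blastula, to stage 13, so that the first is at 0 h and the last at 6 h. The question was how depolarization changes gene expression across the time when embryonic cells leave pluripotency. Each condition was 1 time course without biological replicates, so an SD given below is over time points and does not measure the spread between cultures. The values are abundances, labelled as TPM in the study, after a correction per isoform fitted to known spike-in concentrations. They were summed per gene, so levels can be compared between genes. The number of reads behind them is unknown, and no counting error can be given. In whole embryos, fewer cells with a transcript and less transcript per cell cannot be told apart.

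Across the series, the median difference between conditions moved from one time point to the next. Each difference compares the 2 samples of a time point as log2(abundance + 1), with the control value subtracted from the high K+ value. Their median over tested genes ran from -0.38 at 4.5 h to 0.48 at 1.5 h, and was 0.08 for the mean over the time course. Scaling samples to the ERCC spike-in RNAs moved this last value to -0.03. At 10 of 13 time points the spike-in level itself was the higher one in high K+, by 0.13 ± 0.37 (SD) on the log2 scale over the course. Of 15 germ layer and maternal markers, 14 were found, and all 11 germ layer markers among them exceeded an abundance of 1 at some time in each condition.

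The 4 genes followed 3 different courses in control embryos. *gadd45a* and *gadd45g* were near the floor at stage 8 and rose to become abundant transcripts. *gadd45b* stayed low, with a small early peak. *dusp1* was already abundant in the first sample and fell between 0.5 and 4.5 h. Under high K+, *gadd45a* and *dusp1* were lower over most of the course, but whether either was called different depended on the test. *gadd45b* stood far above control at a single time point, and neither it nor *gadd45g* was called over the course.

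**Figure D1:**
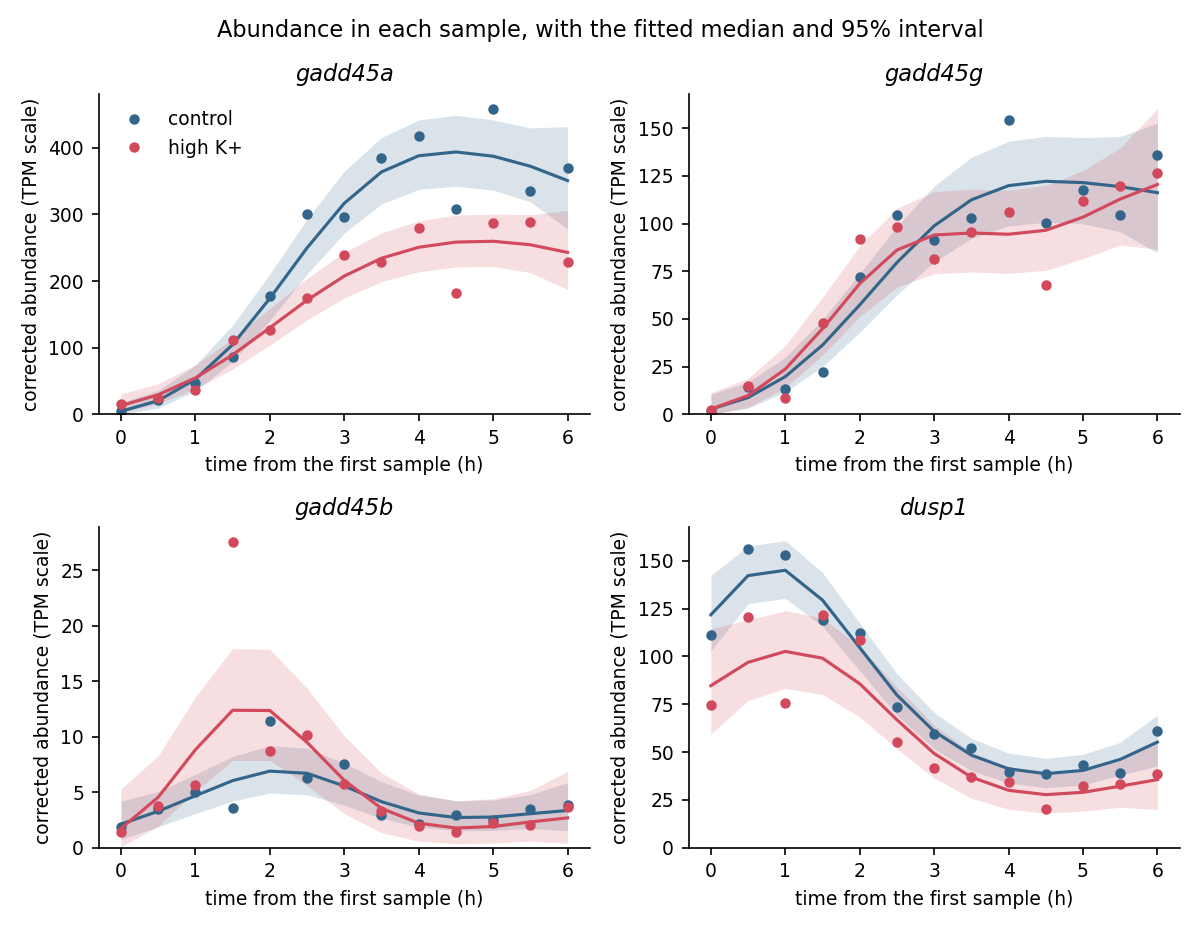
Abundance (TPM scale) of the 4 genes against time in hours from the first sample, with 1 point per sample, control in blue and high K+ in red. Lines and bands are the fitted median and 95% interval of each condition. The *gadd45a* bands are apart from 2.5 h, where control measured 301 and high K+ 175, to 5.5 h and overlap at 6 h, and the *gadd45b* point at 27.5 lies far above its neighbours.

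*gadd45a*, induced by DNA damage and other stress in vertebrates, was the most abundant of the Gadd45 genes in every sample. In control embryos it measured 4.51 at 0 h, 22.1 at 0.5 h, 46.4 at 1 h, 86.5 at 1.5 h, 178 at 2 h and 301 at 2.5 h. From 3 to 6 h the control samples measured 297, 385, 417, 308, 458, 334 and 369. The control course therefore climbed steeply until 2.5 h and then levelled off, with its highest value, at 5 h, 102-fold above its lowest.

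In high K+, *gadd45a* measured 15.6 at 0 h, 24.4 at 0.5 h, 36.4 at 1 h, 112 at 1.5 h, 126 at 2 h and 175 at 2.5 h. From 3 to 6 h the high K+ samples measured 239, 228, 280, 181, 287, 288 and 229. The rise had the same overall shape but a lower plateau and a higher start, and the highest value was 18.5-fold above the lowest. Over the last 7 time points the conditions did not overlap, with 297 to 458 in control and 181 to 288 in high K+. The share of tested genes with such separate ranges was not counted.

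The log2 difference of *gadd45a* was -0.57 ± 0.22 (SD) over the last 7 time points, and its abundance in high K+ was lower at 7 of 7 of them. High K+ embryos held 67.5% of the control level there, with means of 247 and 367. Of all tested genes, 773 (5.15%) were lower at each of the last 7 time points. From 2 h on, *gadd45a* was lower at 9 of 9 time points with a difference of -0.58 ± 0.21, a pattern that 605 genes (4.03%) had. The start at 2 h was chosen after the values of *gadd45a* had been seen. Relative to the median of all tested genes over the last 7 time points, which was 0.04, the shortfall was slightly larger.

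The test of the study's methods fitted each gene with a Gaussian process, once for each condition and once for both together. A gene was called different where the log-likelihood of the separate fits exceeded that of the joint fit (a ratio above 0), and the mean difference of the fitted medians gave its direction. Over all genes tested here, a set filtered otherwise than in the study, 5839 (38.9%) were called, 4448 (29.6%) as activated and 1391 (9.26%) as repressed. *gadd45a* was called repressed, with a ratio of 2.32 and a fitted mean difference of -75.6 in abundance. The fitted 95% intervals of the conditions were apart at 7 time points, from 2.5 to 5.5 h. How often such intervals were apart among all tested genes was not counted, so this is a description only. The ratio was 0.38 without the samples at 3.5 h and 4.69 without those at 4.5 h, and it was 0.11 after a log2 transform and -2.56, no longer a call, under the Bayesian information criterion.

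The first sample of *gadd45a* went the other way. At 0 h it was higher in high K+, by 1.59 on the log2 scale, and 97 tested genes had a larger difference there. With spike-in scaling the difference at 0 h was 1.11. *gadd45a* was also higher at 0.5 h (0.14) and, as deposited, at 1.5 h (0.36), where the median of all tested genes was 0.48. The difference at 1.5 h turned to -0.11 when that median was set to a ratio of 1 (median scaling) and to -0.12 with spike-in scaling. The mean over all 13 time points was -0.27 ± 0.66 (SD), lower at 10 of 13, and did not pass limma with the time point as a block (standard error 0.16, adjusted p = 0.203 after Benjamini-Hochberg adjustment over all tested genes). Without the samples at 0 h the mean was -0.42 ± 0.37 and the limma adjusted p was 0.0062. limma called 4052 genes (27%) higher and 1881 (12.5%) lower, and it takes time points of 1 course as independent, which they are not.

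Some marker genes also differed at 0 h, where the median difference over all tested genes was 0. The spike-in level at 0 h was itself higher in high K+, by 0.50 on the log2 scale. The marker values here are as deposited, without spike-in scaling. Of the 11 germ layer markers found, 9 were higher in the high K+ sample, though *sox3*, *sox17a* and *gata4* by only 0.01, 0.04 and 0.06 on the log2 scale. The 11 had a summed abundance of 779 in control and 788 in high K+, of which *sox3*, a maternally supplied ectodermal factor, made up nearly all. The neural factor *sox2* measured 1.33 in control and 5.60 in high K+, and the ectodermal factors *tfap2a* and *grhl3* measured 0.07 and 2.19, and 0.04 and 1.14. The endodermal marker *mixer* and the mesodermal marker *myf5* were lower in high K+ in that sample (-0.07 and -0.34). The mesodermal *myod1* (0.78), the endodermal *sox17b.1* (0.18) and the ectodermal *foxi1* (0.32) were higher. The maternal transcripts *vegt* (0.47), *velo1* (0.61) and *zar1* (0.13) were higher too. None of the 11 was at 0. The part of these values in the early *gadd45a* difference was not tested.

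**Figure D2:**
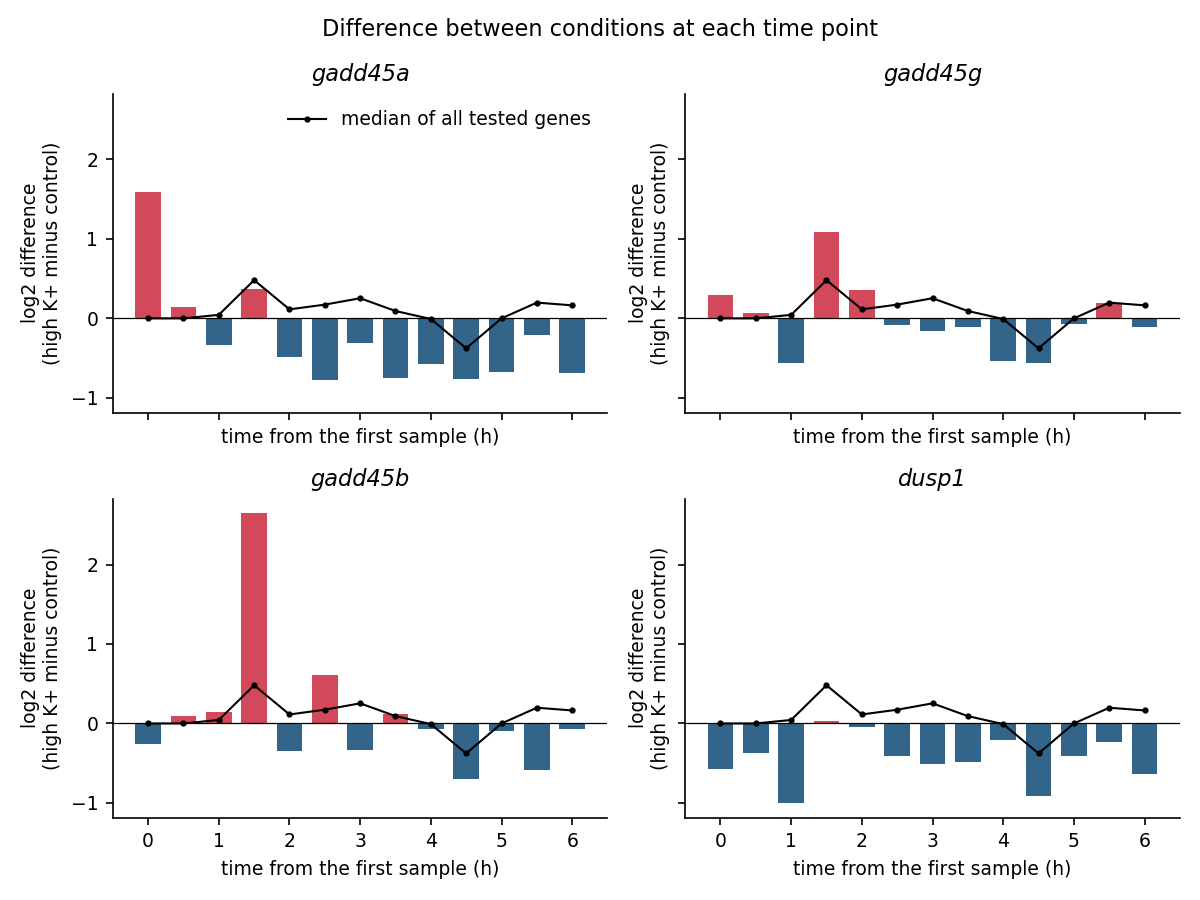
The log2 difference (high K+ minus control) of each gene at each time point in hours, as bars, with the median over all tested genes as a black line. *gadd45a* is below 0 at each time point from 2 h on, *dusp1* at 12 of 13 time points, and the *gadd45b* bar at 1.5 h reaches 2.65.

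*gadd45g*, whose product shares the role of Gadd45a in *Xenopus* neural development, rose in parallel with *gadd45a* at a lower level. In control embryos it went from 1.74 at 0 h to 22.0 at 1.5 h, 71.9 at 2 h and 105 at 2.5 h, and its highest value was 154 at 4 h. In high K+ it went from 2.36 at 0 h to 47.6 at 1.5 h, 92.1 at 2 h and 98.5 at 2.5 h, and its highest value was 127 at 6 h. The 2 ranges over the last 7 time points overlapped, with 91.3 to 154 in control and 67.6 to 127 in high K+.

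The mean log2 difference of *gadd45g* was -0.01 ± 0.45 (SD), lower at 8 of 13 time points, and did not pass limma (adjusted p = 0.930). The log-likelihood ratio was -6.78. It was never above 0 under the alternatives tried. The widest gaps were at 1.5 h, where high K+ was higher by 1.08, and at 1 h, where it was lower (-0.57). The median over all tested genes at 1.5 h was itself 0.48.

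The ratio of *gadd45a* to *gadd45g* within a sample does not depend on how samples are scaled to each other. It was examined after the values had been seen, so it is given without a test. Over the last 7 time points *gadd45a* was 2.70 to 3.90 times as abundant as *gadd45g* in control and 1.81 to 2.93 times in high K+. The log2 ratio was lower in high K+ at 7 of 7 of these time points, by -0.38 ± 0.25 (SD). Over all 13 it was lower at 10, by -0.25 ± 0.59. The ranges of the conditions overlapped, and the ratio still carries the dinucleotide correction, which the authors fitted to each condition separately.

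**Figure D3:**
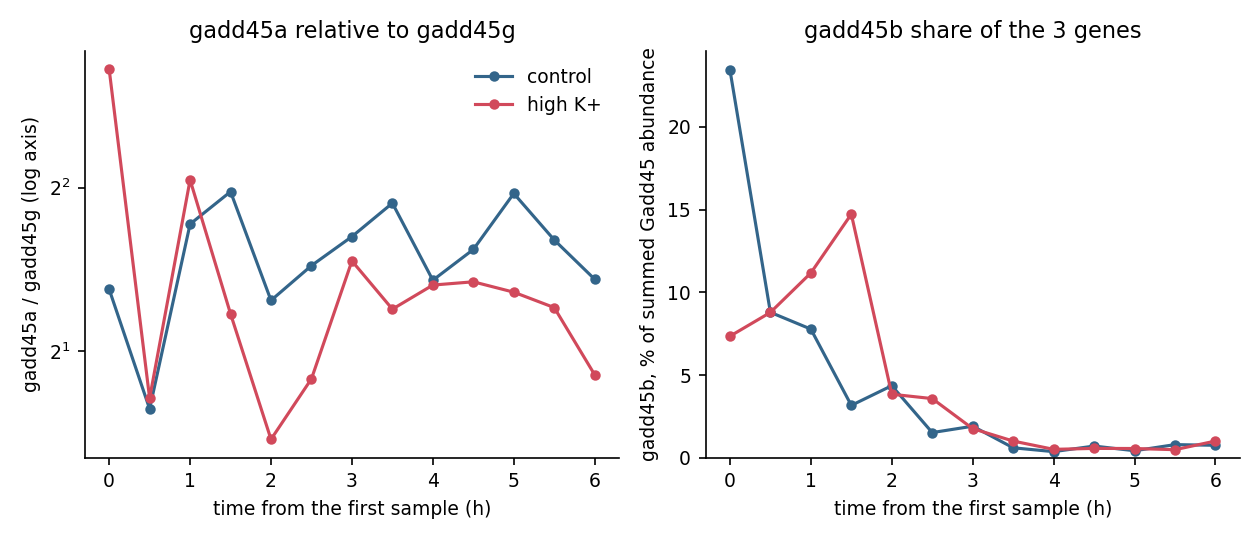
Left, the abundance of *gadd45a* divided by that of *gadd45g* in each sample (log axis) against time in hours. Right, the share of *gadd45b* in the summed abundance of the 3 Gadd45 genes, in percent. From 3 h on the control ratio lies between 2.70 and 3.90 and the high K+ ratio between 1.81 and 2.93, and the *gadd45b* share reaches 14.7% in high K+ at 1.5 h.

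*gadd45b*, in mammals a stress- and cytokine-induced member of the family, was the least abundant of the 4 genes in each sample but the first control sample. In control embryos it measured 1.91 at 0 h, 3.50, 5.06 and 3.55 over the next 3 samples, 11.4 at 2 h, and between 2.14 and 7.56 from 3 h on. In high K+ it measured 1.43 at 0 h, then 3.80 and 5.69, 27.5 at 1.5 h, and 8.74 and 10.2 at 2 and 2.5 h. From 3 h on it lay between 1.43 and 5.77. Both measured courses thus peaked and subsided, the high K+ course 1 sample earlier and higher. Each peak was a single sample. The fitted medians were highest at 1.5 h in high K+ (12.38, against 12.35 at 2 h) and at 2 h in control (6.90).

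The peak of *gadd45b* in high K+ rests on 1 sample. At 1.5 h the log2 difference was 2.65, which is 2.17 above the median of all tested genes at that time, and 52 tested genes had a larger difference. At that time *gadd45b* made up 14.7% of the summed Gadd45 abundance in high K+ and 3.17% in control. The log2 difference remained 2.22 when samples were scaled to a median ratio of 1 and 2.24 when they were scaled to the spike-in RNAs. No second sample of that time and condition exists to set beside it.

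Over the course, *gadd45b* was not called. Its mean log2 difference was 0.09 ± 0.84 (SD), higher at 5 of 13 time points (limma adjusted p = 0.751), and -0.12 ± 0.35 without 1.5 h. The log-likelihood ratio was -2.23. It was -8.83 without the samples at 1.5 h and 1.32 without those at 2 h, and the fitted intervals of the conditions overlapped at each time point.

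*dusp1*, the phosphatase that ends p38 and JNK signalling, ran opposite to *gadd45a* in time. In control embryos it measured 111 at 0 h, 156 at 0.5 h, 153 at 1 h, 119 at 1.5 h, 112 at 2 h and 73.7 at 2.5 h. From 3 to 6 h it measured 59.4, 52.2, 39.6, 38.6, 43.1, 39.3 and 61.0. It was thus highest in the blastula samples and reached its lowest level at 4.5 h.

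In high K+, *dusp1* measured 74.6 at 0 h, 120 at 0.5 h, 75.7 at 1 h, 122 at 1.5 h, 109 at 2 h and 55.1 at 2.5 h. From 3 to 6 h it measured 41.6, 37.0, 34.1, 20.0, 32.2, 33.3 and 38.8. The lowest value was again at 4.5 h, where the median difference over all tested genes was also lowest (-0.38). The highest value was at 1.5 h (122, against 120 at 0.5 h), later than in control. As deposited, the conditions were nearly equal at 1.5 and 2 h and further apart at the other time points. At 1.5 h, where the median of all tested genes was 0.48, the log2 difference was 0.03 as deposited but -0.45 under both the median and the spike-in scaling.

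*dusp1* was lower in high K+ at 12 of 13 time points, which 580 tested genes (3.86%) matched or exceeded. The mean log2 difference was -0.44 ± 0.30 (SD), or 73.5% of control, against a median of 0.08 over all tested genes. It passed limma with the time point as a block (standard error 0.09, adjusted p = 0.00138), and it kept passing without any 1 time point (adjusted p from 9.21e-04 to 0.00373). Without the block its limma adjusted p was 0.563. limma takes the time points of 1 course as independent, so these p-values do not measure the spread between cultures. The log-likelihood ratio did not call *dusp1*, at -0.68. That ratio was above 0 with the median ratio of each time point set to 1 (3.51), with spike-in scaling (0.65), with the mean subtracted (1.94) and after a log2 transform (2.96). It was also above 0 without the samples at 0 h (0.62) or at 1.5 h (0.46). In the other 11 of 13 omissions of a time point it stayed below 0, down to -2.75 without 1 h. Under the Bayesian information criterion it was -5.57. The fitted intervals of the conditions were apart at 2 time points, 0.5 and 1 h, again without a count over all tested genes.

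*gadd45a* overtook *dusp1* at the same sample in both conditions. At 1.5 h *dusp1* was still the more abundant, and at 2 h *gadd45a* was 1.59 times as abundant in control and 1.17 times in high K+. Over the last 7 time points the log2 ratio of *gadd45a* to *dusp1* differed by -0.07 ± 0.22 (SD) between conditions, lower in high K+ at 4 of 7.

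Whether the difference between conditions changed with time was tested with limma as the difference over the last 7 time points minus that over the first 6. No tested gene passed (0 of 15019, 0%), while 1970 genes (13.1%) had an unadjusted p under 0.05. With periods of 7 and 6 time points instead, 101 genes (0.672%) passed. *gadd45a* gave -0.65 (standard error 0.30, unadjusted p = 0.0439, adjusted p = 0.370). *gadd45b* gave -0.73 (adjusted p = 0.420), *gadd45g* -0.38 (adjusted p = 0.470) and *dusp1* -0.09 (adjusted p = 0.860). The reversal of *gadd45a* from 0 h to the late samples is therefore a description of these samples.

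Over the 26 samples, which share a time course, the courses of *gadd45a* and *gadd45g* were much alike, with a Pearson correlation of log2(abundance + 1) of 0.96. That of *gadd45a* with *dusp1* was -0.66 and with *gadd45b* 0.06. The annotated genes most like *gadd45a* were LOC100497175 (0.98), the neural and pluripotency factor *sox2* (0.98) and *ventx3.2* (0.97), a homeobox gene of the Vent family. *sox2* rose in control from 1.33 at 0 h to 633 at 6 h. For *gadd45g* they were *ventx3.2* (0.97), *cnn1*, which encodes a calponin (0.97), and LOC105947280 (0.97). For *dusp1* they were *c1orf109* (0.97), *cep63*, a centrosomal protein (0.96), and *glyctk*, glycerate kinase (0.96). For *gadd45b* they were the adenosine receptor gene *adora2a* (0.88), LOC105947624 (0.83) and *ndufa9*, a subunit of respiratory complex I (0.83). These are descriptions only. The courses of *gadd45a*, *gadd45g* and *dusp1* rise or fall with age, while *gadd45b* peaked early at a low level and subsided.

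Of 26 tested genes of the p38 and JNK cascade, its scaffold proteins and substrates included, 9 (34.6%) were called activated and 2 (7.69%) repressed, close to the 29.6% and 9.26% of all tested genes. These shares show nothing particular to the cascade. The median of their mean log2 differences was 0.00, against 0.08 over all tested genes. *map3k4*, which encodes the kinase that Gadd45 proteins bind, was not called (log-likelihood ratio -4.76, mean log2 difference -0.28 ± 0.42).

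One level down, calls among the kinases that phosphorylate p38 and JNK went in both directions, and no pattern is read from them. *map2k6*, an activator of p38, was activated (ratio 13.9, mean log2 difference 0.70), as was *map2k7*, an activator of JNK (13.5, 0.47), and *map3k1*, a kinase above both (11.6, 0.70). *map2k4*, which acts on both JNK and p38, was repressed (5.93, -0.53). Among the terminal kinases, *mapk8*, which encodes JNK1, was activated (5.58, 0.53), as was *mapk14*, p38 alpha (1.22, 0.33), while *mapk11*, p38 beta, was repressed (0.66, -0.44). The p38 gene *mapk12* was not called (-5.04, -0.001). With spike-in scaling the ratios of *map2k7* (-3.37), *mapk8* (-2.67) and *mapk14* (-5.20) fell below 0, and with the median scaling that of *mapk14* did (-0.96).

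Of 12 tested MAP kinase phosphatases and related genes, *dusp1* left out, 3 (25%) were activated and 1 (8.33%) was repressed. These shares were near the 29.6% and 9.26% of all tested genes. The ERK phosphatases *dusp5* (ratio 4.55, mean log2 difference 0.48) and *dusp6* (4.17, 0.51) were activated, as was the JNK phosphatase *dusp16* (1.78, 0.31). *dusp6* was higher at 13 of 13 time points. *dusp22*, an atypical phosphatase acting on JNK signalling, was repressed (2.26, -0.52). None of the 3 activated calls held with spike-in scaling, where the ratios were -1.67, -1.90 and -1.72, and only that of *dusp5* (2.27) held with the median scaling. The median of the mean log2 differences was -0.02.

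Of 15 tested partners of Gadd45 proteins, 3 (20%) were activated and 1 (6.67%) was repressed, against 29.6% and 9.26% of all tested genes. The median of their mean log2 differences was -0.08, against 0.08 over all tested genes. *apex1*, the abasic site endonuclease of base excision repair, was activated (ratio 8.59, mean log2 difference 0.69), as were *gadd45gip1*, whose product binds Gadd45 proteins (4.17, 0.55), and *ccnb1.2*, a cyclin B gene (4.03, 0.50). The cyclin B gene *ccnb1* (-3.92, 0.37), *cdk1* (-2.90, -0.17), *pcna* (-1.28, 0.33) and the p21 gene *cdkn1a* (-4.60, -0.08) were not called. *ercc5*, which encodes the repair nuclease Xpg that takes part with Gadd45a in DNA demethylation, was repressed (5.09, -0.50). With spike-in scaling the ratios of *gadd45gip1* (-0.07) and *ccnb1.2* (-4.16) were below 0, and with the median scaling that of *gadd45gip1* was (-0.13).

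**Figure D4:**
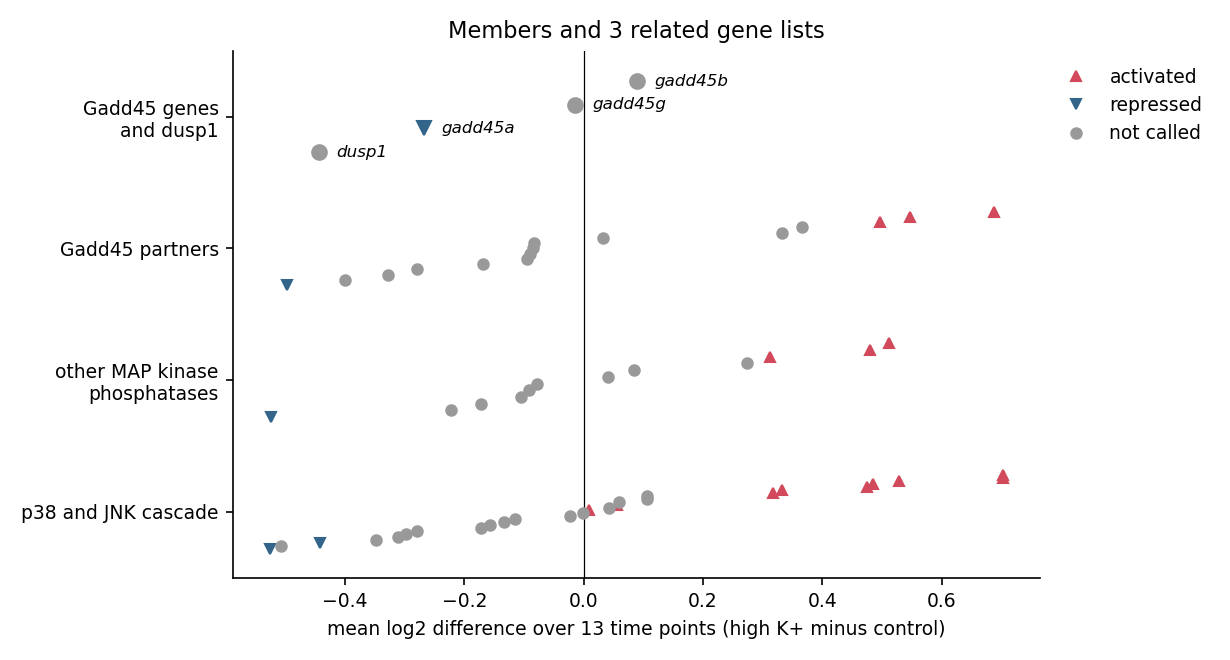
Mean log2 difference over 13 time points (high K+ minus control) of the 4 genes and of each tested gene of the 3 lists, 1 point per gene. Red triangles are genes called activated by the log-likelihood ratio, blue ones repressed and grey points not called. *gadd45a* (-0.27) is called repressed while *dusp1*, at -0.44, is not, and each list spreads on both sides of 0.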

How the data were processed

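The authors aligned stranded paired-end reads of polyadenylated RNA to Xt9.1 using STAR and estimated isoform TPM using RSEM. They then removed an effect of dinucleotide content, modelled on the ERCC spike-ins of each condition apart, and added up the isoforms of a gene. Tool versions are not given in the sources used here. The signal values in the deposited table are the result, used without further scaling. A correction fitted per condition can shift 1 condition as a whole, and can shift single genes by amounts that depend on their dinucleotide content. Because it also fits a coefficient for TPM, such a shift can depend on abundance too. The study describes the bias as dependent on batch and as different between control and high K+ samples. The scalings tried here apply 1 factor per sample, so they cannot remove a shift of a single gene. Depth is unknown, so no counting error is given.

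The filter kept genes with more than 0.4 in 6 successive samples of either condition, applied to the corrected values. The study filtered uncorrected values and also left out genes that the correction altered strongly, so its counts of calls differ. Gaussian processes with the kernel and priors of the study's methods were fitted to transformed values (alpha 1, beta 1000), and a ratio of log-likelihoods above 0 made a call. limma 3.58.1 in R 4.3.3 was fitted on log2(abundance + 1) with the time point as a block, since the number in each sample label is the shared time point, with Benjamini-Hochberg adjusted p-values and a threshold of 0.05. Both were tested on simulated data with noise independent between samples. Those simulations held no noise shared between time points and no bias of a whole condition, so they do not cover either. Python 3.11.15, numpy 2.4.6, scipy 1.17.1, pandas 2.3.3, numba 0.67.0 and matplotlib 3.10.9 were used.

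The 4 members and the lists were chosen with earlier results of these data known. From each list the text names up to 3 activated and 3 repressed genes with the largest ratios, and *map3k4*, *mapk14*, *mapk8* and *dusp6*. The uncalled genes *mapk12*, *ccnb1*, *cdk1*, *pcna* and *cdkn1a* are named beside them. The results of 1 further list are not reported here. For each member it names the 3 annotated genes with the highest Pearson correlation. The alternatives were other scalings, means, transforms, pseudocounts, filters and periods, the Bayesian information criterion, no block, and leaving out each time point. Scaling of the late differences was added after seeing the data. Promoter sequences were not used here.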

Additional observations from a re-analysis of the deposited data

How the results depend on the processing

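The repressed call of *gadd45a* was lost only under the Bayesian information criterion (-2.56). Its ratio was 0.11 after log2 and ran from 0.38 to 4.69 when each time point was left out. Its mean log2 difference ran from -0.42 to -0.23, and it passed limma only without 0 h. For *gadd45b* the ratio rose to 0.81 with the mean subtracted and ran from -8.83 to 1.32 without single time points. Its mean difference was -0.020 with spike-in scaling (adjusted p = 0.953) and ran from -0.12 to 0.15. The mean difference of *gadd45g* ran from -0.11 to 0.031. For *dusp1* the ratio was 3.51 with the median scaling, 0.65 with spike-in scaling, 1.94 with the mean subtracted and 2.96 after log2. It was -5.57 under the Bayesian information criterion and ran from -2.75 to 0.62 without single time points. With no replicate block its limma difference of -0.44 had an adjusted p of 0.563. Its late minus early difference turned to 0.28 with spike-in scaling (adjusted p = 0.639).

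Over the last 7 time points the difference of *gadd45a* was -0.61 with the median scaling and -0.53 with spike-in scaling, and that of *dusp1* was -0.53 and -0.45. *gadd45a* was lower at 7 of 7 under both, and *dusp1* at 7 and 6 of 7.

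Among all 15019 tested genes, spike-in scaling gave 1856 activated and 2472 repressed calls and the median scaling 3125 and 2287. As deposited there were 4448 and 1391, so both scalings gave fewer activated and more repressed calls in the series as a whole. How many genes changed from one call to the other was not counted. Calls over all tested genes were not counted under the other settings. List counts under those settings have no background and are descriptions only. With spike-in scaling 2 of the 26 genes of the p38 and JNK list were activated and 5 repressed. The median scaling and the log2 transform each gave 4 repressed, the Bayesian information criterion 1, and single time points left out 1 to 3. Of the 12 MAP kinase phosphatases and related genes, 1 was activated with the median scaling, and 0 with spike-in scaling and under the criterion. There 2 were repressed with the mean subtracted, 0 under the criterion, and 0 to 2 without single time points. Of the 15 Gadd45 partners, 2 were activated with the median scaling, 1 with spike-in scaling and 1 under the criterion. Of these, 4 were repressed with the median scaling, 3 with spike-in scaling, 5 with the mean subtracted, 3 after log2, and 1 to 3 without single time points.

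With 1 sample per condition and time point and unknown depth, no difference at a single time point could be tested, the *gadd45b* peak at 1.5 h included.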
